A study of Mus musculus with 6 samples.

Results

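The core circadian clock genes were defined as 10 named genes, Arntl, Clock, Npas2, Per1, Per2, Per3, Cry1, Cry2, Dbp and Tef, of which 8 were among the 12966 gene symbols of the expression table and 2, Arntl and Npas2, were not analysed here. RNA from brown adipose tissue of male C57BL/6J mice, 10 weeks of age, had been sequenced in 6 libraries. In BKO mice (3 libraries) the floxed gene Bscl2, which encodes the endoplasmic reticulum protein seipin, was deleted by Ucp1Cre, and Ctrl mice (3 libraries) were Bscl2f/f without the Cre, so that all animals carried the floxed alleles. Ucp1Cre is driven by the promoter of Ucp1 and is known to act in brown adipocytes, so that other cells of the tissue keep the gene, and an effect of the Cre itself cannot be told apart from the deletion. The labels give no hour of tissue collection and do not state whether the 3 libraries of a genotype were 3 mice, so every p below reflects variation among libraries, which may be technical. Values are FPKM, which scales fragments by transcript length and by the mapped total of the library.

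The mammalian clock is a loop of transcription factors that runs in nearly every cell. Arntl (also called Bmal1) pairs with Clock, or with its relative Npas2, and binds E-box elements to switch on the Per and Cry genes, whose proteins return to the nucleus and repress their own activators. The same activators drive Dbp and Tef, transcription factors of the PAR bZIP family that bind D-box elements, and a second loop of nuclear receptors such as REV-ERB alpha acts on Arntl. In brown fat the clock is known to set daily rhythms of thermogenic and lipid genes, and transcripts of a clock gene can differ several-fold between hours of the day.

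The targeted gene stood at 16.5, 16.9 and 18.9 FPKM in the BKO libraries and at 116, 104 and 106 FPKM in the Ctrl libraries. Bscl2 was thus at 16.0% of its Ctrl level (limma, Benjamini-Hochberg adjusted p = 3.95e-05), and the exact two-sided permutation p of 0.1 is the smallest that 3 against 3 libraries allow. The summed FPKM was 2808874 in BKO-3 and between 1119228 and 1617963 in the other 5 libraries, while factors that equalise the median gene lay between 0.970 and 1.033. All 8 brown adipocyte markers were listed, with a mean log2 level of 7.49 to 7.63 in BKO and 7.51 to 7.83 in Ctrl, and Ucp1 stood at 2943 to 2979 FPKM in BKO and 2484 to 3498 FPKM in Ctrl. Of these 8 markers 0 passed the test, 5 had a negative log2 difference and 3 an unadjusted p below 0.05 (limma). The 3, named after their values were seen, were Cidea (-0.22) and Cox7a1 (0.30), whose groups did not overlap, and Ppara (-0.37). Over all tested genes 0.167% passed, 10.2% had an unadjusted p below 0.05 (limma) and the groups of 15.9% did not overlap. Macrophage markers were higher in BKO in mean log2 level (3.27 to 3.41 against 2.26 to 2.71), with 1 of 6 past the test (Lyz2, 84.2 ± 10.5 FPKM in BKO and 23.8 ± 6.20 FPKM in Ctrl, SD, n = 3 each, limma adjusted p = 0.0195). Of these 6 markers 5 had an unadjusted p below 0.05 (limma), and the groups of 4 did not overlap. Of 8 skeletal muscle markers 6 were listed, and their mean log2 level ranged from 3.88 to 5.28 in BKO and from 3.31 to 5.85 in Ctrl. The part of these other cell types in the clock gene levels was not tested, and in bulk tissue fewer cells of a type and less RNA per cell cannot be told apart.

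No clock gene passed the test between the genotypes. Of the 8 tested genes, 0 passed the test in either direction (limma on log2(FPKM + 1), Benjamini-Hochberg adjusted p of 0.738 to 0.999), where 0.167% of the 11397 tested genes passed. At an unadjusted p below 0.05 there were again 0 of 8, against 10.2% of all tested genes, and the groups overlapped in all 8, where 15.9% of tested genes did not overlap. In log2 terms 4 genes were higher and 4 lower in BKO, with a median difference of -0.020, beside 0.0056 over all tested genes. The differences ran from -0.12 for Clock to 0.15 for Dbp. The 95% interval was widest for Per2, from -0.64 to 0.64. Without BKO-3, the library with the high summed FPKM, again 0 of 8 passed (lowest limma adjusted p = 0.451, Clock), and the log2 differences ran from -0.29 for Clock to 0.32 for Dbp.

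**Figure D1:**
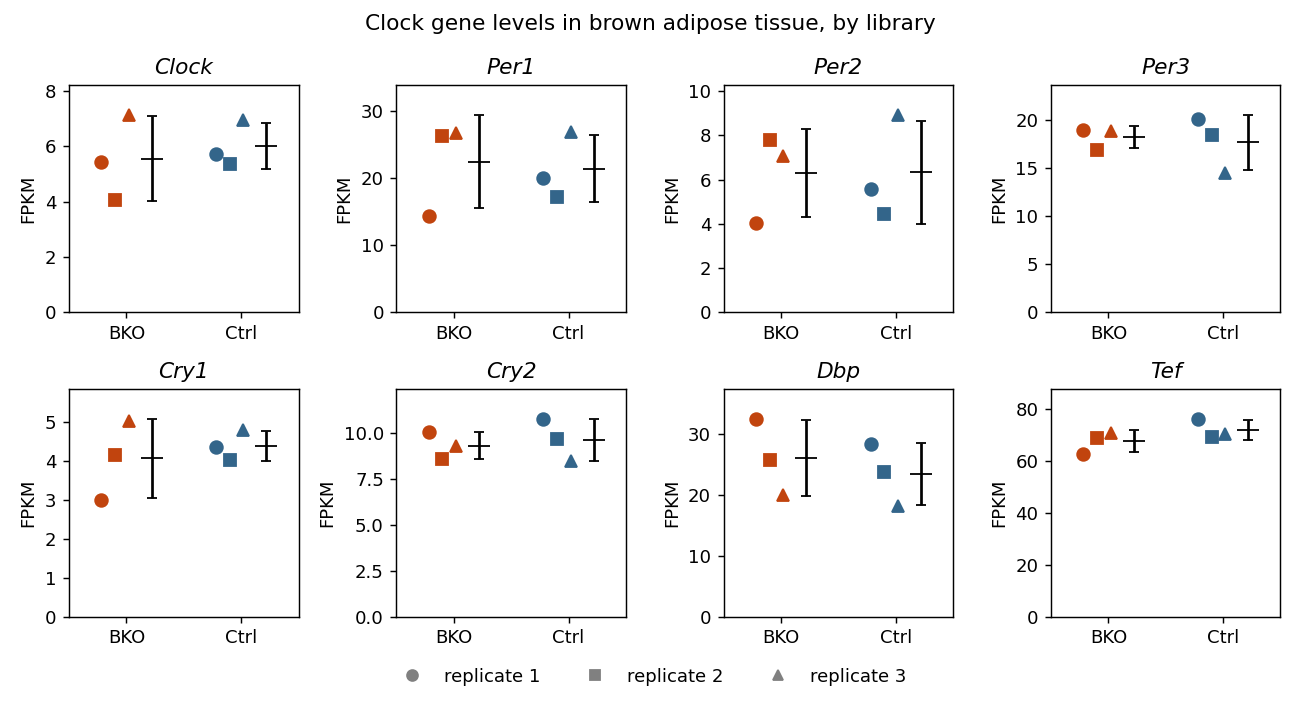
FPKM of each clock gene (vertical axes, from 0) in the 3 BKO and 3 Ctrl libraries, with symbols for replicates and bars for the group mean and SD. BKO and Ctrl points overlap in every panel, and Per1, Per2 and Dbp vary most within a group.

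**Figure D2:**
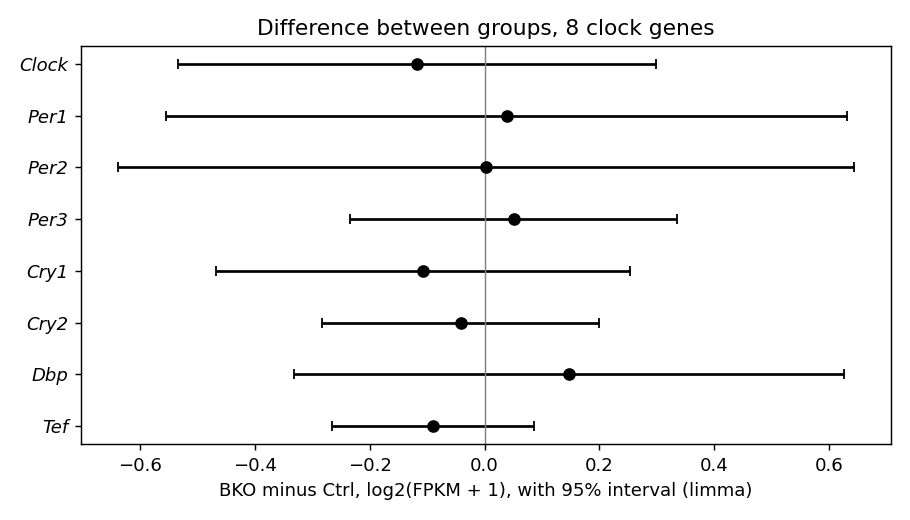
Difference of BKO minus Ctrl in log2(FPKM + 1) for the 8 genes, with 95% intervals from limma. Every interval includes 0, and the interval is narrowest for Tef (-0.27 to 0.09) and widest for Per2 (-0.64 to 0.64).

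The members differed in level by over an order of magnitude. Tef was the most abundant at 69.6 ± 4.30 FPKM (SD, n = 6 libraries), and at least as high as 93.5% of the listed genes. Dbp (24.7 ± 5.30 FPKM), Per1 (22.0 ± 5.46 FPKM) and Per3 (18.0 ± 1.98 FPKM) followed. The lowest value of Tef lay above the highest of Dbp, whereas the ranges of Dbp, Per1 and Per3 overlapped. Cry2 (9.46 ± 0.877 FPKM), Per2 (6.32 ± 1.94 FPKM), Clock (5.77 ± 1.14 FPKM) and Cry1 (4.23 ± 0.710 FPKM) came next, each overlapping its neighbour in this order, and all lay below the lowest library of Per3. FPKM is scaled per length, so these levels can be set beside each other.

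Promoter sequence is shown for the motifs through which the clock is known to act. RefSeq starts on GRCm38.p6 were found for 7 of the 8 listed members (11 windows), and the 250 bases before each start were searched on both strands. The E-box CACGTG was found in the first of 2 windows of Per1, in the window of Cry1 and in both windows of Tef. This E-box is held by 6.02% of 32851 promoters of that length, a share counted per window and not per gene. Its variant CACGTT was found in Cry1 and Cry2 (3.85% of promoters), and the D-box TTANGTAA was found at 2 places in Per3 (2.06%). No window of a listed member held the nuclear receptor element TAGGTCA (2.23% of promoters), the cyclic AMP element TGACGTCA (1.55%) or the palindromic glucocorticoid receptor element (0.387%), and those of Clock and Dbp held none of the motifs. The 4 windows below show the matches in capitals, with CACGTT read on the opposite strand as AACGTG. They lie at chr11:69098699-69098948 (Per1, plus strand, the first of 2 starts), chr4:151044666-151044915 (Per3, minus strand), chr10:85185055-85185304 (Cry1, minus strand) and chr2:92434070-92434319 (Cry2, minus strand), each written 5′ to 3′ towards the start. A match is a description of these letters and not a bound site.
Per1: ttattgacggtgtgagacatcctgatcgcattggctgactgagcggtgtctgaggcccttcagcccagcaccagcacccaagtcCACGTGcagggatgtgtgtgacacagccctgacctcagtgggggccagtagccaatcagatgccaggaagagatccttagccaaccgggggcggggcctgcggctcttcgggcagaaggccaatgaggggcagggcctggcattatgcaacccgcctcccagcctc
Per3: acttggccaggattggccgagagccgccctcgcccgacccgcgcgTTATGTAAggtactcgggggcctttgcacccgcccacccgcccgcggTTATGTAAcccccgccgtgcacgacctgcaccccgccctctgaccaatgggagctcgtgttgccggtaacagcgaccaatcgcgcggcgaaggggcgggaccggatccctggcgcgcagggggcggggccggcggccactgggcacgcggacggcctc
Cry1: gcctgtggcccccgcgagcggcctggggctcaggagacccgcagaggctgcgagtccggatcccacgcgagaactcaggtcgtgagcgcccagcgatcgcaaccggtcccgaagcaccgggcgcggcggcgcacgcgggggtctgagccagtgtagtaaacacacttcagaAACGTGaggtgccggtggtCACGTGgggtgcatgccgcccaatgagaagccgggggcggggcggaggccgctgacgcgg
Cry2: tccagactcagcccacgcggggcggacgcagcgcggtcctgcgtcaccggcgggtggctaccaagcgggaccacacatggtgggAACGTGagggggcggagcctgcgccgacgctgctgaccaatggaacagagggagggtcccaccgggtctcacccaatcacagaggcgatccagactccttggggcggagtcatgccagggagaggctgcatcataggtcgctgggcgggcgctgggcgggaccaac

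Among the activators in the named set, Clock alone was analysed here. Clock, the bHLH-PAS partner of Arntl, stood at 5.43, 4.07 and 7.14 FPKM in the BKO libraries and at 5.71, 5.35 and 6.95 FPKM in the Ctrl libraries. Both the highest and the lowest value were in BKO, and the Ctrl range lay inside the BKO range. The log2 difference was -0.12, with an SE of 0.177 and a Benjamini-Hochberg adjusted p of 0.874 from limma.

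The period genes Per1, Per2 and Per3 encode repressors of Clock and Arntl, and Per1 and Per2 are also known as acute targets of glucocorticoid and cyclic AMP signals. Per1 stood at 14.4, 26.3 and 26.7 FPKM in BKO and at 20.1, 17.3 and 27.0 FPKM in Ctrl. BKO-2, BKO-3 and Ctrl-3 were the highest and BKO-1 the lowest, so that each genotype had high and low libraries. Per2 stood at 4.05, 7.82 and 7.07 FPKM in BKO and at 5.59, 4.46 and 8.95 FPKM in Ctrl. The same 3 libraries were the highest, and BKO-1 was the lowest for both genes. Group means were 22.5 ± 7.0 and 21.4 ± 4.98 FPKM for Per1, and 6.31 ± 1.99 and 6.33 ± 2.33 FPKM for Per2, in BKO and Ctrl (SD, n = 3 each). Per3, whose promoter carried both D-boxes, stood at 18.9, 16.9 and 18.8 FPKM in BKO and at 20.1, 18.5 and 14.5 FPKM in Ctrl. Ctrl-3, the highest library for Per1 and Per2, was the lowest for Per3.

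The cryptochromes Cry1 and Cry2, the other arm of the repressor complex, also differed from each other in the order of the libraries. Cry1 stood at 3, 4.16 and 5.03 FPKM in BKO and at 4.35, 4.02 and 4.78 FPKM in Ctrl. It was lowest in BKO-1 and highest in BKO-3 and Ctrl-3. Cry2 stood at 10.1, 8.58 and 9.25 FPKM in BKO and at 10.7, 9.66 and 8.46 FPKM in Ctrl. Its highest libraries were Ctrl-1 and BKO-1 and its lowest was Ctrl-3, as for Per3. The log2 differences were -0.11 for Cry1 and -0.04 for Cry2 (SE 0.154 and 0.103, limma with Benjamini-Hochberg adjusted p = 0.866 and 0.930).

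Of the PAR bZIP factors, Dbp, a direct output of the Clock and Arntl pair, stood at 32.4, 25.7 and 19.9 FPKM in BKO and at 28.2, 23.7 and 18.1 FPKM in Ctrl. BKO-1 and Ctrl-1 were the highest and BKO-3 and Ctrl-3 the lowest, which left the groups interleaved. The mean was 26.0 ± 6.25 FPKM in BKO and 23.3 ± 5.07 FPKM in Ctrl (SD, n = 3 each), a log2 difference of 0.15 (SE 0.204, limma with Benjamini-Hochberg adjusted p = 0.860). Sphk2 overlaps 18% of the exon bases of Dbp on the opposite strand in GENCODE vM21, and counting by strand is not given in the sources used here, so reads of the 2 genes may not have been told apart. Smaller overlaps were found for Cry2 (4.67% of exon bases, with D930015M05Rik) and Tef (2.45%, with Gm17597). Tef, the relative of Dbp, was the steadiest member, at 62.7, 68.8 and 70.8 FPKM in BKO and 76.1, 69.0 and 70.3 FPKM in Ctrl. Its 95% interval for the difference, -0.27 to 0.09 on the log2 scale, was the narrowest of the 8.

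The spread between libraries of one genotype was large for some members and small for others. The SD within groups on the log2 scale was 0.44 for Per2, 0.41 for Per1 and 0.32 for Dbp, at the 97.1, 96.5 and 94.2 percentiles of the tested genes. Clock (0.27) and Cry1 (0.22) were at the 90.6 and 85.0 percentiles. Per3 (0.17), Cry2 (0.13) and Tef (0.08) were at the 72.5, 53.5 and 21.3 percentiles. Set beside genes of like mean level only (within 1 log2 unit), the percentiles were 97.5 for Per2, 97.7 for Per1, 96.6 for Dbp and 30.6 for Tef. Per1, Per2 and Dbp were thus among the more variable genes of the table within a genotype, and Tef was not.

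**Figure D3:**
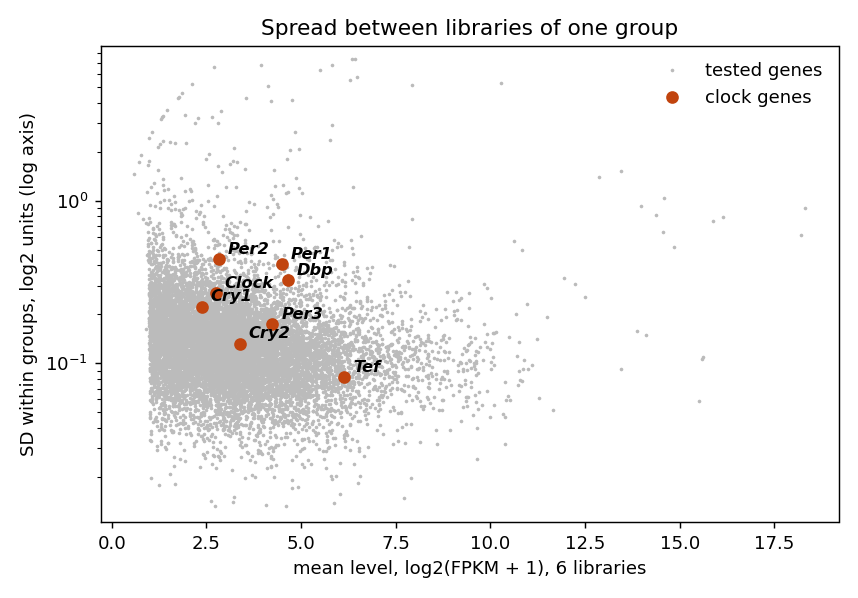
SD within groups in log2 units (vertical, log axis) against mean level in log2(FPKM + 1) (horizontal) for the 11397 tested genes (grey) and the 8 clock genes (red). Per1, Per2 and Dbp lie near the upper edge for their level, with SDs of 0.41, 0.44 and 0.32, while Tef lies among the steady genes at 0.08.

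Over the 6 libraries the order of the libraries was alike for some pairs of members and opposite for others, though no pair passed after adjustment. Per1 and Per2 followed each other most closely, with Pearson's r of 0.96 (exact permutation p = 0.00417) and Spearman's rho of 0.94 (exact permutation p = 0.0167). Without BKO-1 and Ctrl-2, the libraries farthest from the median of Per1, r was 0.88. Per3 and Cry2 gave r of 0.87 (exact permutation p = 0.0153) and rho of 0.94 (exact permutation p = 0.0167), and r of 0.83 without Ctrl-3 and BKO-2. Per1 and Cry1 gave r of 0.86 (exact permutation p = 0.0194) and rho of 0.89 (exact permutation p = 0.0333), and their r fell to 0.43 without BKO-1 and Ctrl-2. Leaving these out also narrows the range of Per1, so it cannot tell whether the relation rests on those libraries. Dbp ran against Cry1, with r of -0.84 (exact permutation p = 0.0306) and rho of -0.71 (exact permutation p = 0.136), and r of -0.68 without BKO-1 and BKO-3. In all 28 pairs were computed and 0 passed after Benjamini-Hochberg adjustment, the lowest adjusted exact permutation p being 0.117 for Pearson and 0.233 for Spearman. The 3 highest libraries for Per1 lay within 26.3 to 27.0 FPKM and the others within 14.4 to 20.1 FPKM, and 3 libraries on either side are too few for a value within each.

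The balance between Dbp and the period genes is a ratio within a library and does not depend on its scaling. The ratio of Dbp to Per1 in FPKM was 2.25, 0.977 and 0.746 in BKO and 1.40, 1.37 and 0.672 in Ctrl. Per3 over Per2 was 4.67, 2.16 and 2.67 in BKO and 3.59, 4.15 and 1.62 in Ctrl. Both ratios were highest in BKO-1 and lowest in Ctrl-3, so the widest contrast lay between single libraries and the groups overlapped. Skeletal muscle markers had a mean log2 level of 4.27, 5.28 and 3.88 in BKO and of 5.85, 3.31 and 4.09 in Ctrl. The part of muscle in these ratios was not tested.

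**Figure D4:**
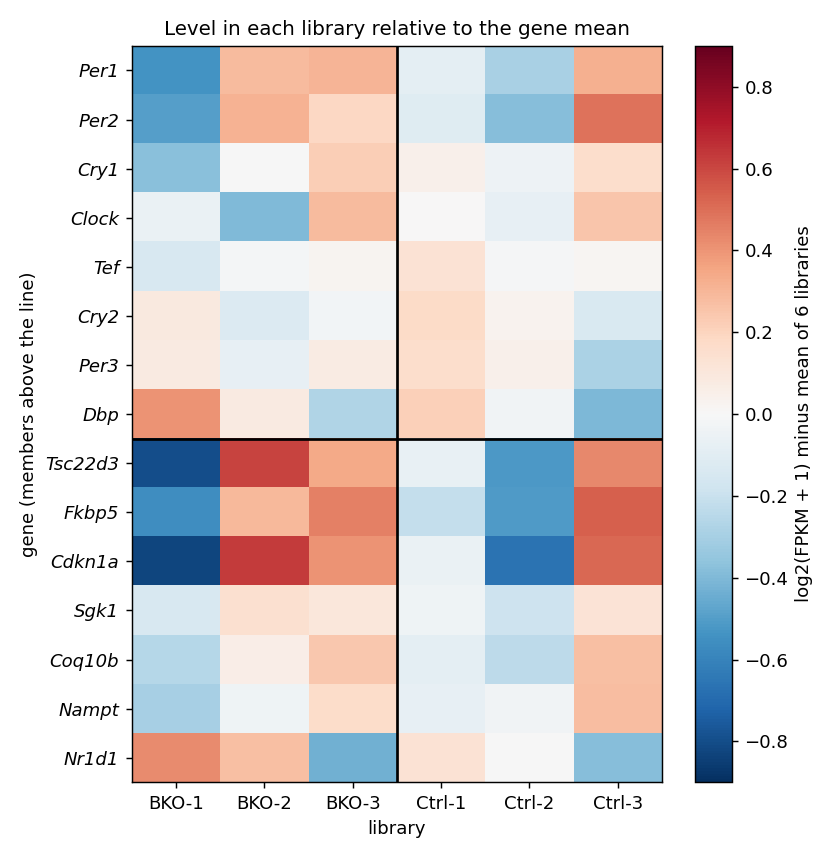
Level of each gene in each library as log2(FPKM + 1) minus its mean over the 6 libraries (colour), with BKO left of Ctrl, clock genes above the line and 7 related genes below it. BKO-2, BKO-3 and Ctrl-3 are high and BKO-1 and Ctrl-2 low for Per1, Per2, Tsc22d3, Fkbp5, Cdkn1a and Sgk1, whereas Dbp and Nr1d1 are highest in BKO-1 and low in BKO-3 and Ctrl-3. Tsc22d3, Fkbp5 and Cdkn1a were chosen after their values were seen. The other glucocorticoid targets are not shown, among them Dusp1 and Angptl4, which had negative r to Per2 (-0.78 and -0.28).

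The genes most like Dbp over the 6 libraries, among 7067 others with a mean of at least 5 FPKM, were Lmo1 (r of 0.99), Cxxc5 (0.99), Ano10 (0.97), Tpr (0.97) and Plekhh3 (0.97). These r rest on 6 points only, and 1.40% of these genes exceeded r of 0.9, a lower cut than the 5 values given. Nr1d1, which encodes the repressor REV-ERB alpha, ranked 33 with r of 0.94. Nr1d1 stood at 40.2, 35.9 and 21.6 FPKM in BKO and at 32.5, 29.5 and 22.5 FPKM in Ctrl, and was lowest in BKO-3 and Ctrl-3, as was Dbp. For Per2, chosen after its values were seen because Arntl was not analysed here, the closest were Qrich1 (r of 0.995), Hnrnpa3 (0.99), Tmod3 (0.99), Ddx21 (0.98) and the casein kinase gene Csnk1a1 (0.98), and 1.63% of genes exceeded 0.9. After group means were taken off, 1 of the 5 closest was shared for Dbp and 1 for Per2. The same genes still had high r, from 0.976 to 0.994 to Dbp and from 0.984 to 0.999 to Per2. Their ranks among the 7067 genes were then 4 to 33 for Dbp and 1 to 24 for Per2.

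Some targets of the glucocorticoid receptor followed Per2 over the libraries and others did not. Of 11 tested genes of that list other than Per1, 4 had r above 0.9 to Per2 (Fkbp5, Sgk1, Tsc22d3 and Cdkn1a), beside 1.36% of 11389 tested genes, which is a description over the 6 libraries shared by all of these values. Clock output genes had 2 of 11 above 0.9 to Per2, Coq10b (0.93) and Tsc22d3, which is in both lists. The kinases, phosphatases and ubiquitin ligases had 1 of 17 (Csnk1a1), and the other transcriptional regulators 0 of 12. Of the other glucocorticoid targets, Klf9 (r of 0.89 to Per2) lay just below this cut. Mt1 (r of 0.50) and Mt2 (0.42) followed Per2 loosely, while Angptl4 (-0.28) and Dusp1 (-0.78), a phosphatase of MAP kinases, had negative r. Tsc22d3, which encodes the glucocorticoid-induced leucine zipper, stood at 17.1, 47.1 and 39.0 FPKM in BKO and at 29.2, 21.1 and 41.7 FPKM in Ctrl. Fkbp5, a co-chaperone of the receptor, stood at 2.03, 4.48 and 5.14 FPKM in BKO and at 2.86, 2.15 and 5.48 FPKM in Ctrl. Cdkn1a, the cyclin-dependent kinase inhibitor p21, stood at 23.5, 66.3 and 56.5 FPKM in BKO and at 40.8, 26.5 and 61.2 FPKM in Ctrl. These 3 genes were named after their values were seen, and each was high in BKO-2, BKO-3 and Ctrl-3, as were Per1 and Per2. Of the 12 genes of this list 0 passed the test (limma, Benjamini-Hochberg adjusted), and 2 had an unadjusted p below 0.05, where 10.2% of all tested genes did. Those were the metallothioneins Mt1, at 558 ± 121 FPKM in BKO and 394 ± 69.1 FPKM in Ctrl (limma adjusted p = 0.416), and Mt2, at 319 ± 122 and 178 ± 61.4 FPKM (limma adjusted p = 0.448; SD, n = 3 each). Cebpd stood at 5.55 ± 1.14 FPKM in BKO and 4.13 ± 0.973 FPKM in Ctrl, Angptl4 at 96.1 ± 13.6 and 102 ± 24.3 FPKM, and Sgk1 at 57.2 ± 6.16 and 54.5 ± 6.05 FPKM.

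The second loop and the other transcriptional regulators of the clock were not called either. Of 12 tested genes 0 passed, 9 had a positive and 3 a negative log2 difference, and the median was 0.14, beside 0.0056 over all tested genes. An unadjusted p below 0.05 (limma) was found for 2 of the 12, where 10.2% of all tested genes had one. The groups of 1 of the 12 did not overlap, beside 15.9% of all tested genes. Nfil3, a repressor that competes with Dbp and Tef for D-boxes, stood at 9.01, 18.2 and 13.2 FPKM in BKO and at 5.39, 5.30 and 10.3 FPKM in Ctrl (log2 difference 0.86, SE 0.294, limma adjusted p = 0.409). One Ctrl library, Ctrl-3, lay above the lowest BKO library. Bhlhe40, which encodes the E-box repressor DEC1, stood at 29.6, 27.1 and 14.0 FPKM in BKO and at 18.1, 15.9 and 17.8 FPKM in Ctrl (limma adjusted p = 0.676). Without BKO-3, its lowest library, the log2 difference of Bhlhe40 was 0.68 and passed the test (limma adjusted p = 0.0494). Leaving out that library takes away the BKO value below all Ctrl values. Over all tested genes 41 were then higher and 3 lower, against 18 and 1 with all 6 libraries. Nr1d1 averaged 32.6 ± 9.70 FPKM in BKO and 28.2 ± 5.17 FPKM in Ctrl, and Nr1d2 24.8 ± 1.76 and 27.5 ± 5.02 FPKM (SD, n = 3 each). Ciart, given in the table under its older symbol Gm129, stood at 5.22, 8.27 and 5.0 FPKM in BKO and at 4.07, 3.27 and 7.31 FPKM in Ctrl.

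Enzymes that modify clock proteins were not called. Of 17 tested kinases, phosphatases and ubiquitin ligases 0 passed, with a median log2 difference of -0.02, and 2 had an unadjusted p below 0.05, a share near the 10.2% of all tested genes. Gsk3b, a kinase of several clock proteins, stood at 6.73, 6.62 and 7.31 FPKM in BKO and at 8.21, 8.35 and 8.34 FPKM in Ctrl (log2 difference -0.24, SE 0.0733, limma adjusted p = 0.345). Ppp1cb, a catalytic subunit of protein phosphatase 1, stood at 63.2, 61.2 and 70.1 FPKM in BKO and at 72.9, 78.4 and 73.7 FPKM in Ctrl (limma adjusted p = 0.416). The groups of these 2 of the 17 genes did not overlap, where 15.9% of all tested genes did not. Gsk3a stood at 29.6 ± 1.65 FPKM in BKO and 31.8 ± 1.72 FPKM in Ctrl, Ppp1ca at 98.4 ± 5.78 and 102 ± 7.0 FPKM, Csnk2b at 57.6 ± 3.42 and 59.5 ± 3.12 FPKM, and Csnk1a1 at 53.1 ± 3.70 and 52.4 ± 4.13 FPKM (SD, n = 3 each).

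Of 11 tested clock output genes 0 passed and the median log2 difference was -0.06, with 2 genes at an unadjusted p below 0.05, where 10.2% of all tested genes were. Por, the electron donor of cytochromes P450, stood at 78.5, 79.3 and 79.0 FPKM in BKO and at 99.2, 93.0 and 83.4 FPKM in Ctrl (log2 difference -0.21, SE 0.0775, limma adjusted p = 0.423). Herpud1, which also responds to stress of the endoplasmic reticulum, stood at 47.2, 48.4 and 45.4 FPKM in BKO and at 42.7, 36.8 and 41.3 FPKM in Ctrl (log2 difference 0.22, SE 0.0763, limma adjusted p = 0.412). The groups of both genes did not overlap, 2 of 11 beside 15.9% of all tested genes. Pdk4, a kinase that inhibits pyruvate dehydrogenase, stood at 934 ± 124 FPKM in BKO and 911 ± 23.1 FPKM in Ctrl, Coq10b at 70.1 ± 12.1 and 68.5 ± 12.9 FPKM, Nampt at 110 ± 17.5 and 119 ± 16.5 FPKM, and Wee1 at 1.88 ± 0.193 and 2.08 ± 0.165 FPKM (SD, n = 3 each).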

How the data were processed

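The deposited values are FPKM per gene, made by the authors. Per the submitters' processing notes, CASAVA 1.8, TopHat2 2.0.12 and Cufflinks 2.2.1 were used with the build NCBIM37, while options, annotation and strand handling were not stated there. Each column was matched to its sample through the description label, where MT names stand for Ctrl and WT names for BKO, and the level of Bscl2 was checked against this. The lowest values above 0 reach 2.16e-227, so they are estimates and not multiples of whole reads, and depth is unknown. No value of BKO-3 lies between 0 and 0.486 FPKM, so the listing may have been filtered on that library.

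The 11397 genes whose mean reached 1 FPKM were tested as log2(FPKM + 1) with limma 3.58.1 in R 4.3.3 (intensity trend, no covariate, Benjamini-Hochberg over all tested genes, threshold 0.05). Differences on this scale understate changes of low genes. The fit was tested on simulated data. Members and lists were chosen with earlier results of these data known. From each related list the text names the genes past the test, the 4 most abundant and the 3 with the lowest p, except 1 gene that is not reported here. Likeness was Pearson's r on log2(FPKM + 1). It was to be taken for Arntl and Dbp, and Per2 stood in for Arntl. Promoter sequences are RefSeq's on GRCm38.p6, another build than the authors used. Alternatives were other pseudocounts, filters, scalings, limma settings, a replicate block and leaving out each library.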

Additional observations from a re-analysis of the deposited data

How the results depend on the processing

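Under all 16 alternatives 0 clock genes passed, and the lowest adjusted p of a member over these limma fits was 0.451 (Clock, without BKO-3). Cry1 was not tested at a mean of at least 5 FPKM. Of 119 member values under alternatives, 103 kept their direction and 16 turned. With 1 library left out, log2 differences ranged from -0.29 to 0.053 for Clock, -0.11 to 0.32 for Per1, -0.19 to 0.25 for Per2, -0.078 to 0.14 for Per3, -0.24 to 0.053 for Cry1, -0.12 to 0.033 for Cry2 and -0.019 to 0.32 for Dbp. Per2 was also -0.0175 with median ratio rescaling and -0.0177 with quantile normalization. Tef kept its direction in all 15 of its alternatives. Over all tested genes 18 were higher and 1 lower in BKO. The higher count was 11 with no filter, 9 at a mean of at least 5 FPKM, 48 with array weights and 33 at an adjusted p below 0.1, and 5 (without BKO-1) to 41 (without BKO-3) with 1 library left out. It was 11 without BKO-2, 8 without Ctrl-2 and 11 without Ctrl-3. The lower count was 6 with array weights and 1 to 3 with 1 library left out. It was 3 without BKO-2, BKO-3 or Ctrl-1 and 2 without Ctrl-3. Of the related lists 0 to 1 genes passed with a library left out (Bhlhe40, without BKO-3). The cause was not tested. With the replicate block the lower count was 2, the higher count was 23, and the lowest adjusted p of a member was 0.602 (Dbp). The correlation over genes of deviations from the group mean was 0.20, -0.10 and -0.10 for numbers 1, 2 and 3. Between libraries of unlike number it ran from -0.13 to 0.22. Whether libraries of like number were collected or processed together was not tested. Precision is limited by 3 libraries a group and an unknown depth.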

Other observations

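Some transcripts ran against Dbp over the 6 libraries rather than with it. Nampt, the enzyme that feeds NAD synthesis and a known clock output, stood at 92.2, 111 and 127 FPKM in BKO and at 108, 111 and 138 FPKM in Ctrl, with r of -0.98 to Dbp. Klf9, a transcription factor induced by glucocorticoids, stood at 28.3, 37.7 and 44.2 FPKM in BKO and at 34.1, 34.3 and 48.1 FPKM in Ctrl, with r of -0.95. Both were highest in Ctrl-3 and BKO-3, where Dbp was lowest, and lowest in BKO-1, where Dbp was highest. They were named after their values were seen, and 0.896% of 11389 tested genes had r below -0.9 to Dbp. Hlf, the other PAR bZIP gene of the lists, stood at 11.7, 9.90 and 12.1 FPKM in BKO and 12.9, 11.4 and 11.2 FPKM in Ctrl, with r of 0.10 to Dbp.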
